A study of Mus musculus with 12 samples.

Results

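The plexins are a family of 9 mouse genes, Plxna1, Plxna2, Plxna3, Plxna4, Plxnb1, Plxnb2, Plxnb3, Plxnc1 and Plxnd1. They were found by symbol among the 27998 genes of the single-cell feature lists and by Entrez identifier among the 40814 genes of the neurosphere count table, and all 9 were present in both. A lower level of Plxnb1 in the knockout neurospheres was among the values that led to this choice, so the neurosphere contrast is given for the members as a description, without a test. The remaining material, the members' levels by cell type in postnatal tissue, is described by library.

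Plexins are single-pass receptors for semaphorins, the guidance cues that steer growing axons and migrating cells. Class A plexins mostly receive secreted class 3 semaphorins together with a neuropilin and also bind class 6 semaphorins directly. Class B plexins bind class 4 semaphorins, Plxnc1 binds Sema7a, and Plxnd1 is the endothelial receptor of Sema3e. In the hippocampus class A plexins are known for laying out the mossy fibres, the axons of dentate granule cells.

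The study asked what loss of Larp7, an RNA-binding protein of the 7SK complex that holds the elongation kinase P-TEFb inactive, does to the dentate gyrus. Bulk RNA was sequenced from neurospheres grown from dentate gyrus at P1, dissociated and kept in differentiation medium for 2 days. There were 2 wild-type cultures and 3 knockout cultures of the genotype Larp7f/f;Emx1-Cre, in which Cre is expressed from the Emx1 locus in progenitors of the dorsal forebrain. The study takes its n as either experiments or mice, and the sample labels tie no culture to an animal, so p-values measure only the spread between these cultures.

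Droplet single-cell RNA was sequenced from dentate gyrus at P7, with 1 library for each of 3 genotypes and 3 to 4 gyri of littermates combined in each. The libraries were wild-type, Larp7f/f;nestin-Cre, with Cre driven in neural progenitors by a nestin transgene, and Larp7f/f;Emx1-Cre. The study used mice with floxed Larp7 alleles as its wild-type controls. For the mutant P7 libraries the sample titles and the genotype entries name opposite Cre lines. The titles were followed here, and every value called nestin-Cre or Emx1-Cre below belongs to the library titled so.

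The neurosphere libraries held 59821311 to 62474602 counts and the P7 libraries 26689878 to 28918491 UMIs (unique molecular identifiers, 1 per captured RNA molecule). Cells with more than 500 genes and under 15% mitochondrial UMIs numbered 10997 in the wild-type, 6685 in the nestin-Cre and 6531 in the Emx1-Cre library. The wild-type library stood apart, with a median of 1782 UMIs per cell against 3644 and 3873. Of its neuroblast-gated cells, 65.7% lay in clusters that were erythroid or carried no name. For radial glia-like cells this share was 39.1%, against 9.31% in the nestin-Cre and 9.82% in the Emx1-Cre library. Between 23 and 31 barcodes of each library also occurred in another. Scrublet called 3 wild-type, 226 nestin-Cre and 400 Emx1-Cre cells doublets, too few in the wild-type library for the caller to have worked, and none was removed for the main values. Larp7 itself stood at 42.8 and 35.0 CPM (counts per 1000000 of the library) in the wild-type and 4.17, 6.35 and 4.39 CPM in the knockout neurospheres (log2 fold change −2.97 ± 0.21 SE, edgeR quasi-likelihood adjusted p = 0.0198). In the P7 libraries Larp7 was lower in the neural classes of the mutants, for example 51.7 CPM in wild-type, 10.3 CPM in nestin-Cre and 8.97 CPM in Emx1-Cre granule-gated cells, while endothelial-gated cells held 47.1, 55.0 and 39.7 CPM. Microglia-gated cells, which no neural progenitor gives rise to, held 61.0, 37.1 and 41.0 CPM.

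The genes lie on 6 chromosomes of GRCm38.p6. Plxna1 (chr6:89316313-89362613), Plxna4 (chr6:32144543-32588192) and Plxnd1 (chr6:115954811-115995339) share chromosome 6, all on the minus strand. Plxna3 (chrX:74328290-74344689) and Plxnb3 (chrX:73756556-73772510) are on the plus strand of X. Plxna2 (chr1:194619791-194816869, plus), Plxnb1 (chr9:109093849-109119915, plus), Plxnb2 (chr15:89155546-89182018, minus) and Plxnc1 (chr10:94790866-94945015, minus) are each alone on their chromosome.

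Upstream sequence is shown for the members whose levels differed between genotypes below and whose window is not taken up by an exon of their own or of another mRNA. The RefSeq table of GRCm38.p6 used here holds windows for 7 of the 9 plexins, and Plxna1 and Plxna4 are not among them. Each line gives the bases of the 250 upstream of the annotated start that lie outside such exons, 5′ to 3′ on the gene's strand, with GGGCGG or its reverse complement CCGCCC in capitals. The Plxnb1 run (chr9:109095186-109095435) lies in an intron of a Plxnb1 transcript model that starts further upstream, and inside an exon of the antisense non-coding gene Gm7628. The Plxna2 run is chr1:194619579-194619790, the Plxnc1 run chr10:94945016-94945095 and the Plxnb3 run chrX:73756853-73756935. The Plxnb3 run also lies inside its own gene, past the gene start given above and outside the exons.
Plxnb1: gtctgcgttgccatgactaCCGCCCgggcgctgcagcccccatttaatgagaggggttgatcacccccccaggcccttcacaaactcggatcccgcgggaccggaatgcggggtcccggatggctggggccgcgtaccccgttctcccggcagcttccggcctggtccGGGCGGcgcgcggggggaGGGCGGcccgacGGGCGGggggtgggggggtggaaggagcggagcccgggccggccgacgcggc
Plxna2: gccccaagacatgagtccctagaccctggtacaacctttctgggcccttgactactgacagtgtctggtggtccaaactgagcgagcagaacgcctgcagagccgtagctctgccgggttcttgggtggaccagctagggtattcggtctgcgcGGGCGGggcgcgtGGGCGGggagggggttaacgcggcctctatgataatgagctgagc
Plxnc1: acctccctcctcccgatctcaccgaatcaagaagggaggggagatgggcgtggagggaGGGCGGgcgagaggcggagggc
Plxnb3: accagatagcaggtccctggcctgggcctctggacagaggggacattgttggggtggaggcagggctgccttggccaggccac
GGGCGG, the core of the GC box, occurs on either strand in 32.7% of the 32851 mouse windows of this length. It was found 4 times in the Plxnb1 window, 4 times in the Plxnc1 window, of which 1 lies in the bases printed, 2 times in that of Plxna2 and not in that of Plxnb3. Plexin windows that are not shown held it as well, with 4 and 3 matches for Plxnb2 and 1 each for Plxna3 and Plxnd1. The Plxnb1 window was also dense in CpG, with 30 CpG dinucleotides and 75.2% G and C against medians of 6 and 52.4% over all windows, whereas the Plxnb3 window held 3 CpG. TATAAA, held by 12.4% of windows, was in none of the plexin windows. These matches describe letters and say nothing of binding.

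In neurospheres the 9 plexins covered a wide range. Per kilobase of exon, so that genes can be compared, Plxnb2 was the most abundant at 51.2 CPM per kb in wild-type cultures, followed by Plxnb1 at 36.7 and Plxna1 at 19.3 CPM per kb. Plxna2 (13.4), Plxnc1 (12.8), Plxna3 (11.1) and Plxnb3 (8.90 CPM per kb) were intermediate, and Plxnd1 (1.52) and Plxna4 (0.903 CPM per kb) were low. In knockout cultures Plxnb1 and Plxna1 were level, both at 21.7 CPM per kb.

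Plxnb1, a receptor of Sema4d that acts on RhoA through PDZ-RhoGEF, was measured at 411 and 466 CPM in the wild-type cultures and at 246, 273 and 257 CPM in the knockout cultures. All 3 knockout cultures lay below both wild-type cultures, and the log2 fold change was −0.76 ± 0.08 (SE). It was the largest difference in the family. Gm7628, the antisense gene over its 5′ part, had 79 and 90 counts in wild-type and 74, 78 and 52 counts in knockout cultures, beside 14638 to 28053 counts of Plxnb1, and no source used here says whether counting used strand.

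Of the other class B plexins, Plxnb2, a broadly expressed receptor of class 4 semaphorins, overlapped between genotypes at 485 and 412 CPM against 451, 411 and 422 CPM (log2 fold change −0.07 ± 0.09). Plxnb3, known from the oligodendrocyte lineage and as a receptor of Sema5a, stood at 81.2 and 65.7 CPM in wild-type and 95.7, 118 and 111 CPM in knockout cultures. Its knockout values were all the higher ones (log2 fold change 0.56 ± 0.12), so that the 3 members of class B did not share a direction.

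Among class A plexins, Plxna3 was lower in the knockout, at 82.6 and 102 CPM in wild-type and 59.8, 71.9 and 63.2 CPM in knockout cultures (log2 fold change −0.50 ± 0.12). Plxna2, a receptor of class 6 and class 3 semaphorins, was higher, at 144 and 153 CPM against 188, 191 and 165 CPM (log2 fold change 0.29 ± 0.08). Plxna1 was higher by a smaller step, at 176 and 173 CPM against 194, 198 and 195 CPM (log2 fold change 0.17 ± 0.05). Groups did not overlap for any of these 3. Plxna4, at 10.5 and 12.3 CPM against 10.3, 12.7 and 12.7 CPM, overlapped between the genotypes.

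The remaining members act outside the class A and B systems. Plxnc1, at 85.6 and 120 CPM in wild-type and 82.4, 74.5 and 64.2 CPM in knockout cultures, had no overlap but a narrow gap, and its log2 fold change of −0.48 ± 0.16 became −0.21 without wild-type culture 2. Plxnd1 overlapped at 12.4 and 9.82 CPM against 12.4, 9.72 and 13.1 CPM. In all, 3 plexins lay wholly above and 3 wholly below the wild-type values, beside 21.3% of the 17753 tested genes in each direction. As the contrast served to choose Plxnb1, nothing is read from these counts. The median log2 fold change was 0.07 over the plexins and 0.01 over all genes. In bulk cultures fewer cells of a type and less RNA per cell cannot be told apart.

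**Figure D1:**
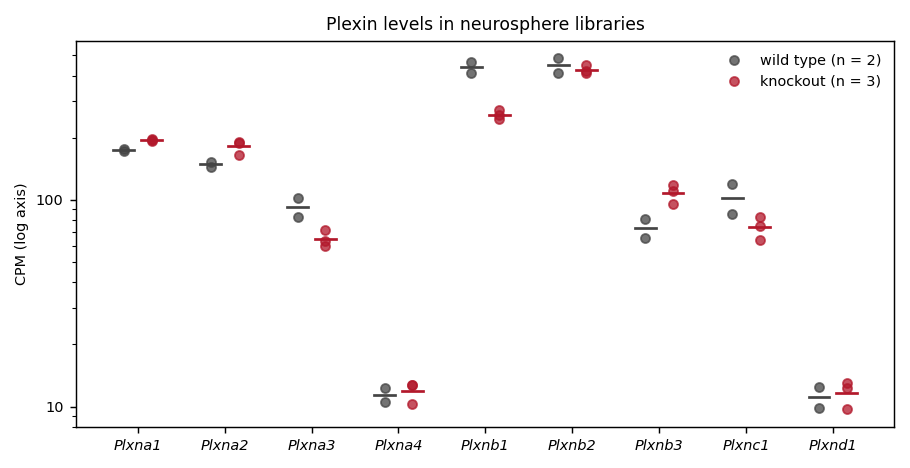
Plexin levels in neurospheres at day 2 of differentiation, in CPM on a log axis, with 1 point per culture (2 wild-type, 3 Larp7 knockout) and a bar at each group's mean. Plxnb1, Plxna3 and Plxnc1 have all knockout points below the wild-type points, Plxna1, Plxna2 and Plxnb3 have them above, and Plxna4, Plxnb2 and Plxnd1 overlap.

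Cells of the P7 libraries were gated on panels of 8 marker genes, with at least 3 markers of a panel detected, ahead of every other panel. The panels of neuronal intermediate progenitors, neuroblasts and granule neurons competed together as the granule lineage. A lineage cell with at least 3 progenitor markers was nIPC-gated, otherwise with at least 2 granule markers granule-gated, and otherwise neuroblast-gated. Values of a class are the gene's share of the class's UMIs, scaled as CPM, with exact 95% Poisson intervals that cover counting error only. Because the UMI protocol captures 3′ ends unequally between genes, each gene is compared only with itself across classes and libraries. Radial glia-like (RGL-gated) cells, neuronal intermediate progenitors (nIPC-gated), neuroblasts, granule neurons, astrocytes, oligodendrocyte precursors (OPC), microglia and endothelial cells had enough UMIs to be described. Granule-gated cells rested on Prox1 (714, 1001 and 966 CPM in wild-type, nestin-Cre and Emx1-Cre) and Rbfox3, whereas C1ql2 and Rasgrf2, genes of mature granule cells, were at most 5.24 CPM in any library.

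The plexins were highest in different classes. In the wild-type library Plxna2, Plxna3 and Plxna4 were highest in granule-gated cells, Plxna1 and Plxnb1 in astrocyte-gated cells, Plxnb2 in microglia-gated cells, Plxnb3 and Plxnc1 in OPC-gated cells, and Plxnd1 in endothelial-gated cells. The leads of Plxna1 over OPC-gated cells (ratio 1.49, 0.55 to 5.02), of Plxnb3 over microglia-gated cells (3.15, 0.95 to 11.96) and of Plxnc1 over RGL-gated cells (1.25, 0.75 to 1.98) were within counting error. These leading classes were the same for 9 of 9 plexins outside the unnamed and erythroid clusters and for 8 of 9 after every cell was thinned to 1500 UMIs, where nIPC-gated cells led for Plxna3. With clusters in place of gates, where granule neurons had no class of their own, they were the same for 4 of 9.

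**Figure D2:**
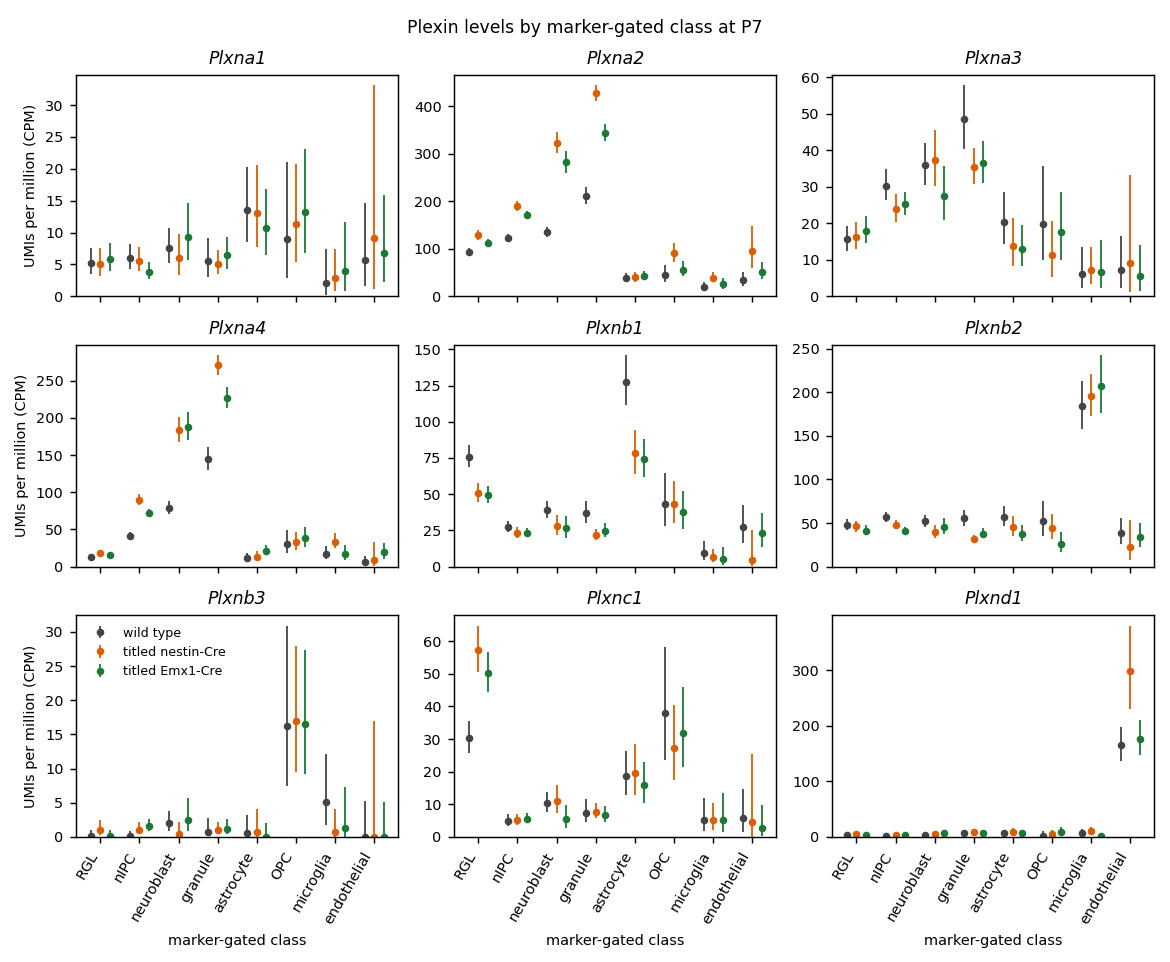
Levels of each plexin by marker-gated class in the P7 wild-type, nestin-Cre and Emx1-Cre libraries (1 library each), in CPM, with exact 95% Poisson intervals for counting error. Plxna2 and Plxna4 climb toward granule-gated cells and are higher in both mutant libraries there, Plxnb1 peaks in astrocyte- and RGL-gated cells and is lower in both, Plxnb2 stands out in microglia and Plxnd1 in endothelial cells.

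Plxna2 was higher at each later stage of the granule lineage in the wild-type library, from 93.5 CPM in RGL-gated to 123 CPM in nIPC-gated, 135 CPM in neuroblast-gated and 211 CPM in granule-gated cells. Neuroblast- and nIPC-gated cells did not differ beyond counting error (ratio 1.10, interval 0.99 to 1.23), while granule-gated cells exceeded neuroblast-gated cells by 1.56 (1.39 to 1.75). Outside the lineage it lay between 19.7 CPM in microglia- and 45.2 CPM in OPC-gated cells. At 1500 UMIs per cell, at least 1 Plxna2 UMI was found in 26.1% of wild-type granule-gated cells, against 2.02% of microglia-gated cells, which serve as the background of free RNA.

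Both mutant libraries held more Plxna2 RNA in the lineage, and the nestin-Cre library also in some classes outside it. In neuroblast-gated cells the level was 135 CPM in wild-type, 323 CPM in nestin-Cre and 282 CPM in Emx1-Cre, which made ratios of 2.39 (2.15 to 2.66) and 2.09 (1.86 to 2.34). In granule-gated cells the values were 211, 428 and 344 CPM, with ratios of 2.03 (1.85 to 2.23) and 1.63 (1.48 to 1.80). The step was smaller in nIPC-gated cells (123, 190 and 171 CPM) and in RGL-gated cells (93.5, 129 and 112 CPM). Astrocyte-gated cells held 39.2, 39.9 and 42.4 CPM, with ratios of 1.02 (0.70 to 1.47) and 1.08 (0.77 to 1.53). OPC-gated cells held 45.2, 90.4 and 56.3 CPM, with ratios of 2.00 (1.26 to 3.27) and 1.24 (0.76 to 2.10). Endothelial-gated cells, with only 21 to 38 Plxna2 UMIs in a library, held 34.3, 96.3 and 52.0 CPM, with ratios of 2.81 (1.49 to 5.27) and 1.52 (0.89 to 2.64). Between the mutants, the Emx1-Cre library was the lower one in granule-gated cells, at 0.80 (0.75 to 0.86) of the nestin-Cre level.

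Plxna4, a Sema3a receptor with neuropilins and a receptor of class 6 semaphorins, was likewise highest late in the lineage. It went from 13.2 CPM in wild-type RGL-gated cells to 41.7 CPM in nIPC-gated, 79.1 CPM in neuroblast-gated and 145 CPM in granule-gated cells, and the steps from nIPC- to neuroblast- and from neuroblast- to granule-gated cells were beyond counting error. In neuroblast-gated cells it stood at 79.1, 183 and 188 CPM in wild-type, nestin-Cre and Emx1-Cre, with ratios of 2.32 (2.01 to 2.67) and 2.38 (2.05 to 2.76). The values were 41.7, 89.8 and 71.8 CPM in nIPC-gated cells and 145, 271 and 227 CPM in granule-gated cells. Both mutant libraries thus lay above the wild-type library at 3 stages of the lineage. In RGL-gated cells (13.2, 18.1 and 15.1 CPM) the intervals of both ratios included 1. Outside the lineage, astrocyte-gated cells, with 20, 18 and 38 Plxna4 UMIs, had ratios of 1.11 (0.56 to 2.22) and 1.83 (1.04 to 3.33). OPC-gated cells had ratios of 1.07 and 1.26 with intervals that included 1.

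Several properties of the libraries moved with these differences. Wild-type neuroblast-gated cells had a median of 1181 UMIs, held less Neurod1 (848 CPM against 1821 and 1746 CPM) and more RNA of the 8 dividing-cell markers (855 CPM against 202 and 193 CPM) than the mutant ones. In nIPC-gated cells the granule markers summed to 579, 843 and 748 CPM in wild-type, nestin-Cre and Emx1-Cre. The dividing-cell markers summed to 2545, 2227 and 2092 CPM there. Without cells of unnamed and erythroid clusters, a restriction chosen after seeing the data, neuroblast-gated cells held 170, 357 and 296 CPM of Plxna2, with ratios of 2.10 and 1.74, and the Plxna4 ratios were 1.76 and 1.75. In nestin-Cre microglia-gated cells Plxna2 (19.7, 39.3 and 25.1 CPM) and Plxna4 (17.6, 33.5 and 17.2 CPM) also stood above wild-type, where the summed level of the 8 granule markers was 116, 158 and 165 CPM. In endothelial-gated cells the granule markers summed to 68.5, 91.7 and 98.5 CPM and the neuroblast markers to 607, 922 and 1352 CPM. The part of these properties in the ratios, within and outside the lineage, was not tested.

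With every cell thinned to 1500 UMIs, neuroblast- and granule-gated cells were grouped by how many granule markers were detected. Plxna2 was higher at each step of that number in each library, from 114 to 170 and 215 CPM in wild-type, from 237 to 363 and 453 CPM in nestin-Cre and from 212 to 283 and 338 CPM in Emx1-Cre cells with 0, 1 and at least 2 markers. At equal marker number the nestin-Cre ratios were 2.08, 2.14 and 2.11 and the Emx1-Cre ratios 1.86, 1.67 and 1.58, all with intervals above 1. Plxna4 followed the same order in the wild-type library, from 74.3 to 105 and 144 CPM, with nestin-Cre ratios of 1.62, 2.04 and 1.81 and Emx1-Cre ratios of 1.38, 1.65 and 1.53. Cells of equal marker number still differed in other lineage genes. Neurod1 stood at 821, 1439 and 1459 CPM in wild-type, nestin-Cre and Emx1-Cre cells with 0 markers and at 1259, 2221 and 2166 CPM in those with at least 2, and Prox1 at 565, 813 and 820 CPM in those with 1. Their part in the Plxna2 and Plxna4 ratios was not tested.

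**Figure D3:**
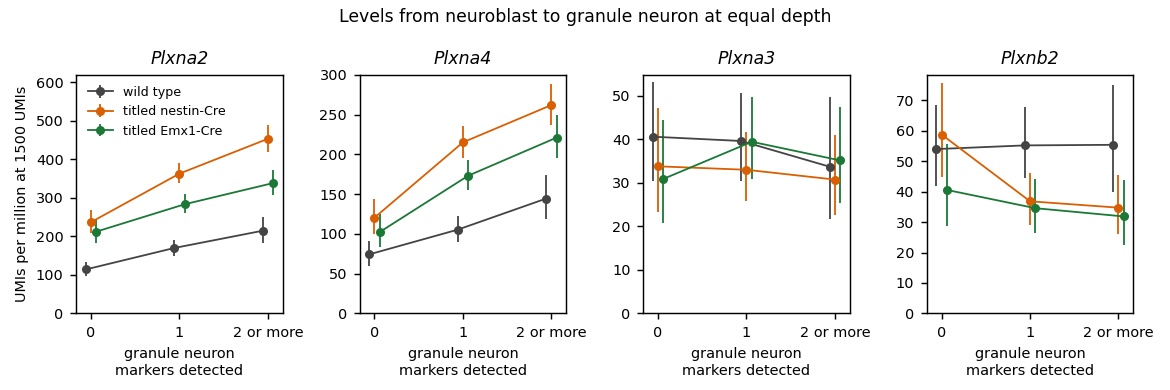
Levels of Plxna2, Plxna4, Plxna3 and Plxnb2, in CPM, in neuroblast- and granule-gated cells thinned to 1500 UMIs. Cells are grouped by the number of granule markers detected (0, 1 or at least 2), with 1 line per library and exact 95% Poisson intervals. Plxna2 and Plxna4 are higher with each added marker in all 3 libraries, and their wild-type line lies below both mutant lines at each stage. Plxna3 is not higher with added markers in wild-type, and Plxnb2 is lower with each added marker in both mutant libraries.

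Plxna3, a receptor for Sema3f and Sema3a complexes, had the same lineage order in wild-type (30.4 CPM in nIPC-, 36.0 in neuroblast- and 48.6 CPM in granule-gated cells), but this order was not kept at equal depth. At 1500 UMIs it stood at 40.6, 39.7 and 33.7 CPM in wild-type cells with 0, 1 and at least 2 granule markers, and at least 1 UMI was found in 6.09% of nIPC-, 5.81% of neuroblast- and 5.06% of granule-gated cells, against 0.810% of microglia-gated cells. Without thinning, granule-gated cells held 48.6, 35.5 and 36.6 CPM in wild-type, nestin-Cre and Emx1-Cre, with ratios of 0.73 (0.58 to 0.92) and 0.75 (0.59 to 0.96). At 1500 UMIs its ratios over the 3 marker stages lay between 0.76 and 1.04, with intervals that included 1. Plxna1 was sparse, with 146 to 155 UMIs in the gated cells of a library, and its highest class, astrocyte-gated cells, held 13.5, 13.1 and 10.7 CPM. In no class with at least 50 UMIs did its interval between a mutant and the wild-type library exclude 1.

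Dividing cells were set apart by at least 3 of 8 division markers. Among wild-type nIPC-gated cells Plxna4 stood at 20.3 CPM in dividing and 60.8 CPM in other cells, a ratio of 0.33 (0.25 to 0.44), and the ratios were 0.19 in nestin-Cre and 0.31 in Emx1-Cre. Dividing nIPC-gated cells held 25.5 CPM of Plxna4 in nestin-Cre and 32.1 CPM in Emx1-Cre, and other nIPC-gated cells 133 and 103 CPM. Plxna3 had ratios of 0.51, 0.81 and 0.44 in the same order, with only the nestin-Cre interval including 1. For Plxnb2 the ratios were 0.90, 1.12 and 1.00, with all intervals including 1. Plxnb1 had ratios of 0.95 (0.71 to 1.28), 0.65 (0.45 to 0.92) and 0.69 (0.51 to 0.92), so its step was beyond counting error in both mutant libraries and not in wild-type. Plxna2 had ratios of 0.86 (0.75 to 0.99), 0.65 and 0.63. Of these 5 plexins Plxna4 had the lowest ratio in each library.

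Plxnb1 was highest in glial classes. In the wild-type library it was at 128 CPM in astrocyte-gated and 75.9 CPM in RGL-gated cells, a difference beyond counting error, and then at 43.4 CPM in OPC-, 39.3 CPM in neuroblast-, 37.2 CPM in granule- and 27.6 CPM in nIPC-gated cells. At 1500 UMIs it was found in 16.2% of astrocyte-gated and 14.7% of RGL-gated wild-type cells, against 2.02% of microglia-gated cells.

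In both classes Plxnb1 was lower in the mutant libraries. Astrocyte-gated cells held 128 CPM in wild-type, 78.3 CPM in nestin-Cre and 74.0 CPM in Emx1-Cre, with ratios of 0.61 (0.48 to 0.78) and 0.58 (0.46 to 0.72). RGL-gated cells held 75.9, 50.6 and 49.6 CPM, with ratios of 0.67 (0.56 to 0.79) and 0.65 (0.56 to 0.77). The mutant libraries lay close to each other, with Emx1-Cre at 0.98 (0.82 to 1.18) of nestin-Cre in RGL-gated cells. Over the other settings tried the RGL ratios ran from 0.51 to 0.67 and the astrocyte ratios from 0.55 to 0.64. Neuroblast-gated (39.3, 28.2 and 26.6 CPM) and granule-gated cells (37.2, 21.8 and 24.8 CPM) had lower mutant levels as well. At 1500 UMIs this did not hold for Emx1-Cre cells with at least 2 granule markers, where Plxnb1 stood at 27.0 CPM in wild-type, 19.0 CPM in nestin-Cre and 33.5 CPM in Emx1-Cre, with ratios of 0.70 and 1.24 and intervals that included 1. OPC-gated cells held 43.4, 42.9 and 37.5 CPM, with intervals that included 1. In RGL-gated cells the summed astrocyte markers stood at 2090, 2984 and 2673 CPM and the dividing markers at 1438, 1149 and 1379 CPM. Their erythroid markers stood at 592, 43.2 and 72.8 CPM, and 39.1%, 9.31% and 9.82% of these cells lay in unnamed or erythroid clusters. The part of these properties in the ratio was not tested.

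Within RGL-gated cells, Plxnb1 was lower in dividing than in other cells of the wild-type library (46.9 against 88.1 CPM, ratio 0.53, 0.41 to 0.69) and of the Emx1-Cre library (ratio 0.58, 0.42 to 0.80). The nestin-Cre ratio of 0.76 had an interval up to 1.06. Non-dividing RGL-gated cells, compared alone, held 88.1, 53.6 and 56.2 CPM of Plxnb1 in wild-type, nestin-Cre and Emx1-Cre. Dividing RGL-gated cells held 46.9, 40.6 and 32.8 CPM in the same order, with smaller differences from wild-type.

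Plxnb2 was found in all 8 classes and was highest in microglia-gated cells, at 184, 196 and 208 CPM in wild-type, nestin-Cre and Emx1-Cre, with ratios of 1.06 (0.88 to 1.29) and 1.13 (0.90 to 1.41). Wild-type microglia-gated cells held 3.21 times the level of the next class, and the 7 classes after them, between 38.6 and 57.4 CPM, did not differ from their neighbours beyond counting error. In granule-gated cells it stood at 55.3, 31.3 and 37.9 CPM, with ratios of 0.57 (0.45 to 0.71) and 0.69 (0.54 to 0.87). At 1500 UMIs the nestin-Cre ratio was 1.09 in cells with no granule marker, 0.67 with 1 and 0.63 with at least 2, and the Emx1-Cre ratios were 0.75, 0.63 and 0.58. In granule-gated cells of both mutant libraries, then, Plxnb2 was lower while Plxna2 and Plxna4 were higher. Lower Plxnb2 was not confined to this class. In nIPC-gated cells the nestin-Cre and Emx1-Cre ratios were 0.85 (0.73 to 0.98) and 0.73 (0.63 to 0.84). Neuroblast-gated cells had 0.76 (0.60 to 0.97) and 0.88 (0.69 to 1.13). Astrocyte-gated cells had 0.80 (0.57 to 1.10) and 0.66 (0.48 to 0.91), and OPC-gated cells 0.84 (0.51 to 1.41) and 0.50 (0.28 to 0.90). In RGL-gated cells both intervals included 1.

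Plxnb3 gave only 37, 44 and 45 UMIs in the gated cells of the 3 libraries, too few for a ratio. OPC-gated cells held 9, 15 and 15 of them, at 16.3, 17.0 and 16.6 CPM. The few oligodendrocyte-gated cells (5, 3 and 2) held 7, 4 and 3 UMIs, which over the 3 libraries is 298 CPM (163 to 500), above the OPC-gated level.

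Plxnc1 was highest in OPC-gated (38.0 CPM) and RGL-gated cells (30.4 CPM) of the wild-type library, which did not differ beyond counting error, followed by astrocyte-gated cells at 18.7 CPM. In RGL-gated cells it stood at 30.4 CPM in wild-type, 57.4 CPM in nestin-Cre and 50.3 CPM in Emx1-Cre, with ratios of 1.89 (1.54 to 2.32) and 1.66 (1.36 to 2.03). The ratios over the other settings ran from 1.49 to 1.96 in nestin-Cre and from 1.30 to 1.75 in Emx1-Cre, with the lowest value of each from clusters in place of gates. The properties of RGL-gated cells given for Plxnb1 apply to these ratios as well. OPC-gated (38.0, 27.1 and 32.0 CPM) and astrocyte-gated cells (18.7, 19.6 and 15.8 CPM) had intervals that included 1. Dividing RGL-gated cells held less Plxnc1 than other RGL-gated cells in nestin-Cre (ratio 0.35, 0.22 to 0.53) and Emx1-Cre (0.52, 0.37 to 0.71), while the wild-type ratio of 0.72 had an interval of 0.48 to 1.05.

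Plxnd1 was highest in endothelial cells among the described classes. Wild-type endothelial-gated cells held 166 CPM (116 UMIs in 110 cells), 22.9 times the next of the 8 described classes, and the mutant libraries 298 CPM (65 UMIs in 32 cells) and 177 CPM (129 UMIs in 81 cells). The nestin-Cre ratio was 1.80 (1.31 to 2.46) and the Emx1-Cre ratio 1.07 (0.82 to 1.38). The summed level of the 8 erythroid markers in these cells was 18420, 18.4 and 5089 CPM, that of the mural markers 3302, 1289 and 3371 CPM and that of the macrophage markers 97.1, 358 and 105 CPM. The part of these in the ratio was not tested. Among classes with fewer cells, wild-type mural-gated cells held 180 CPM (22 UMIs, 113 to 273). This was above the endothelial value of 166 CPM, which lay inside that interval. In neurons, 56 Plxnd1 UMIs came from the 79 Cajal-Retzius-gated cells of the nestin-Cre library (125 CPM, 94.6 to 163).

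**Figure D4:**
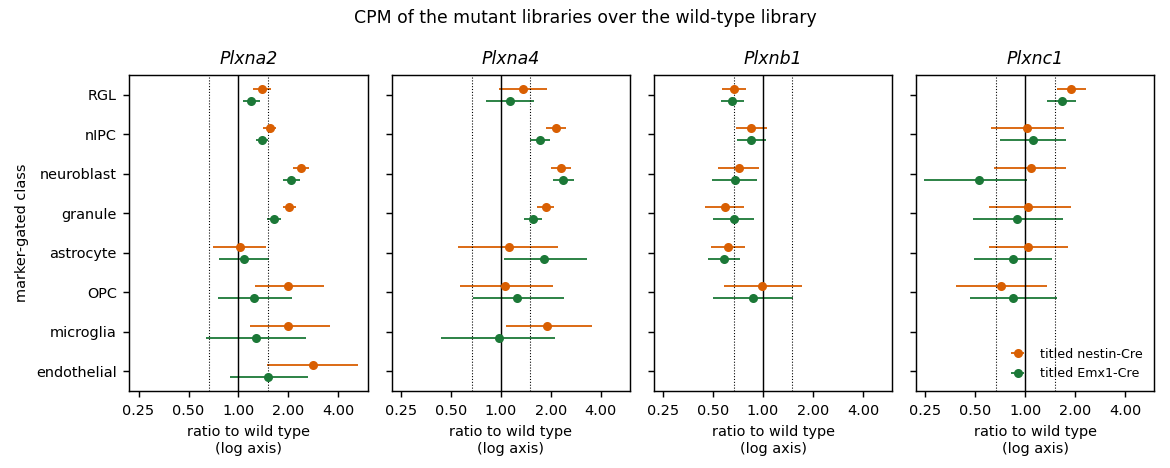
Ratios of plexin levels in the nestin-Cre and Emx1-Cre libraries over the wild-type library by gated class, on a log2 axis, for pairs of gene and class with at least 50 UMIs over the 3 libraries, with exact 95% intervals for counting error. Plxna2 and Plxna4 in the granule lineage and Plxnc1 in RGL-gated cells lie above 1, and Plxnb1 in RGL- and astrocyte-gated cells lies below 1 in both mutant libraries.

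Counted over the 49 pairs of plexin and class with at least 50 UMIs, 14 were at least 1.5-fold higher and 5 at least 1.5-fold lower in nestin-Cre, and 9 higher and 7 lower in Emx1-Cre. Both comparisons share the wild-type library. In neuroblast-gated cells 2 of 7 plexins were higher and 0 lower in nestin-Cre, where 11.3% of all genes were higher and 16.6% lower, and 2 were higher and 1 lower in Emx1-Cre (12% and 12.6% of genes). In granule-gated cells 2 of 8 were higher and 2 lower in nestin-Cre (13.2% and 11%), and 2 higher and 0 lower in Emx1-Cre (10.3% and 6.65%). In nIPC-gated cells 3 of 8 were higher and 0 lower in nestin-Cre (11.7% and 7.6%), and 2 higher and 1 lower in Emx1-Cre (8.9% and 2.93%). With 7 or 8 members in a class, these counts of 0 to 3 are too small to be set apart from the share over all genes.

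In the remaining classes the counts were as small. RGL-gated cells had 2 of 8 plexins higher and 1 lower in nestin-Cre (11.3% and 3.89% of genes) and 1 higher and 1 lower in Emx1-Cre (7.2% and 2.81%). Astrocyte-gated cells had 0 of 7 higher and 1 lower in nestin-Cre (9.11% and 5.58%) and 1 higher and 3 lower in Emx1-Cre (6.63% and 4.66%). OPC-gated cells had 1 of 5 higher and 0 lower (13.8% and 7.95%), then 0 higher and 1 lower (10.2% and 4.7%). Microglia-gated cells had 2 of 3 higher and 0 lower in nestin-Cre (6.89% and 8.75%) and 0 in either direction in Emx1-Cre (6.73% and 9.27%). Endothelial-gated cells had 2 of 3 higher and 1 lower in nestin-Cre (15% and 14.8%) and 1 higher and 0 lower in Emx1-Cre (9.48% and 3.96%). The median ratio over the plexins of a class lay between 0.80 and 1.90.

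The partners of the plexins were followed by lists of 20 semaphorins, 7 coreceptors and 30 intracellular effectors. In neurospheres edgeR called 0 of 19 tested semaphorins, 0 of 7 coreceptors and 0 of 30 effectors at an adjusted p under 0.05, where it called 0.0169% of genes higher and 0.0169% lower. At an unadjusted p under 0.05 it marked 4 semaphorins as higher and 1 as lower, 0 and 2 coreceptors, and 4 and 2 effectors, beside 10.4% of genes higher and 11.2% lower. DESeq2 called 2 and 0, 0 and 0, and 2 and 2, beside 5.17% of its 15338 genes higher and 6.15% lower. Counts of 0 to 4 are too small to be set apart from these shares. The median log2 fold changes of the lists were 0.09, −0.07 and −0.03. Since no member passed, the following were chosen after their values were seen. Sema3d, a secreted class 3 semaphorin, stood at 7.79 and 6.61 CPM in wild-type and 12.4, 15.8 and 20.4 CPM in knockout cultures (log2 fold change 1.17 ± 0.23, edgeR adjusted p = 0.0952). Mical2, a flavin monooxygenase that oxidises actin, had a log2 fold change of −0.85 ± 0.17 (edgeR adjusted p = 0.0972).

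In the P7 wild-type library the ligands and coreceptors had their own highest classes. Sema3c, a secreted ligand of class A plexin complexes and of Plxnd1, was highest in granule-gated cells at 451 CPM, and Sema6a and Sema6d, direct ligands of class A plexins, in astrocyte-gated cells at 182 and 197 CPM. Sema5a, a ligand of class A plexins and Plxnb3, was highest in OPC-gated cells at 121 CPM, and Sema4d, the ligand of Plxnb1, in microglia-gated cells at 50.7 CPM. Nrp1 and Kdr, coreceptors of class 3 semaphorin and VEGF signalling, were highest in endothelial-gated cells at 366 and 714 CPM. The class with the highest Plxnb1 level therefore differed from that with the highest Sema4d level.

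Of 5 coreceptors with enough UMIs in neuroblast-gated cells, 3 were at least 1.5-fold higher and 1 lower in nestin-Cre and 3 higher and 0 lower in Emx1-Cre, beside the shares of genes given above for this class. In granule-gated cells 2 of 5 were higher and 0 lower in nestin-Cre (13.2% and 11% of genes). In Emx1-Cre 1 of 5 was higher and 0 lower (10.3% and 6.65% of genes). With 5 members, these counts are too small to be set apart from those shares. Nrp2, which binds Sema3f and Sema3c, stood at 43.8, 102 and 92.7 CPM in neuroblast-gated cells of wild-type, nestin-Cre and Emx1-Cre, with ratios of 2.33 (1.92 to 2.82) and 2.11 (1.72 to 2.60). In granule-gated cells it was at 48.2, 137 and 93.4 CPM. Nrp1, which binds Sema3a, was at 130, 235 and 260 CPM in neuroblast-gated cells, with ratios of 1.81 (1.61 to 2.03) and 2.01 (1.78 to 2.26). L1cam, an adhesion molecule of Nrp1 complexes, was at 32.4, 71.0 and 80.8 CPM there. Nrcam, an adhesion molecule that pairs with Nrp2, had ratios of 1.11 and 0.82 in neuroblast-gated cells with intervals that included 1, and Kdr, at 35, 2 and 16 UMIs, ratios of 0.10 and 1.00. In granule-gated cells Nrp1 had ratios of 1.30 and 1.42 and L1cam of 1.40 and 1.42. Nrp2 was also higher in microglia-gated cells, with ratios of 1.48 and 1.52. Of 14 semaphorins in neuroblast-gated cells, 6 were higher and 0 lower in nestin-Cre (11.3% and 16.6% of genes). In Emx1-Cre 8 were higher and 0 lower (12% and 12.6% of genes). Among the higher ones in both were Sema3c (304, 506 and 554 CPM) and Sema6d (108, 202 and 182 CPM). The counts were not tested against the shares. The properties of wild-type neuroblast-gated cells given for Plxna2 apply to these values as well.

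The genes most like each plexin over the 10 classes of the wild-type library with at least 50 cells were found by the Pearson correlation of log2(CPM + 10), among 9616 genes with at least 200 UMIs. These correlations describe 10 points that share 1 library, and with so many genes high values arise easily. Plxna2 was most like Ccl27a (r = 0.97), Zfp637 and Cblb, Plxna3 most like Apc2 (0.99), Mkrn2 and Alg2, and Plxna4 most like the kinesin gene Kif5a (0.98), Celf3 and Dbndd1. Plxnb1 was most like Aamdc (0.98), Mvd and Vdac1, and Plxnb2 most like Capza2 (0.99), Fnip1 and Tceb3. Plxnc1 was most like the neural progenitor gene Sox3 (0.95), Samd4 and Pcsk6, and Plxnd1 most like Map4k2 (0.98), 4931406P16Rik and the endothelial cadherin gene Cdh5 (0.96).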

How the data were processed

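For neurospheres the authors deposited raw counts of reads per gene, and the study's methods describe alignment with Minimap2 to a mouse transcriptome. For the P7 cells they deposited raw UMI counts of each gene in each barcode, from 10x Genomics 3′ libraries and Cell Ranger (cellranger 4.0.0 per the file headers). The submitters' processing notes also name featureCounts, and no source used here states how strand was treated. The count table has 10 columns, of which 5 match no sample of the labels and were not used. ATAC-seq and CUT&Tag were not analysed here.

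Members and gene lists were chosen with earlier results of these data known, and the limits of the gates were set after seeing the data. Entrez identifiers were matched to symbols through GRCm38.p6 (39373 of 40814). Neurosphere counts were tested over 17753 genes passing filterByExpr with edgeR 4.0.16 (TMM, quasi-likelihood, Benjamini-Hochberg threshold 0.05, R 4.3.3), with DESeq2 1.42.0 as an alternative. The biological coefficient of variation was 19.4%, and libraries of 1 group differed by more than sampling noise (a chi-square of 18.7 to 61 for each degree of freedom), so each counted as a replicate. P7 cells (more than 500 genes, under 15% mitochondrial UMIs) were gated on 17 panels of 8 markers, with at least 3 markers detected and a lead of 1. Cells of the granule lineage were nIPC-gated with 3 nIPC markers, otherwise granule-gated with 2 granule markers, otherwise neuroblast-gated. UMIs were summed per class and library. No test was made between genotypes, each of which has 1 library. Pairs of gene and class with 50 UMIs over the libraries were described, as higher or lower at 1.5-fold, with 95% intervals (exact Poisson for levels, exact conditional binomial for ratios) that cover counting error only.

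Alternatives were a stricter gate, Leiden clusters (scanpy 1.11.5, leidenalg 0.10.2), more than 200 genes, thinning to 1500 UMIs (4785, 597 and 439 cells left out), removal of the 6% of cells with the highest Scrublet scores, other count normalization and filters, and leaving out each culture. Scripts were tested on simulated data (Python 3.11.15). Semaphorins and coreceptors are named by the class in which they were highest, and all 9 plexins are named. Genes named by likeness were the 3 most correlated for plexins with at least 200 UMIs.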

Additional observations from a re-analysis of the deposited data

Results flagged for a closer look

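Plxnc1 differed in opposite directions between the cultures and 1 gated class of the tissue, RGL-gated cells. In neurospheres all 3 knockout cultures lay below both wild-type cultures (log2 fold change −0.48), whereas in RGL-gated cells of the P7 libraries the level was higher in both mutant libraries, with ratios of 1.89 in nestin-Cre and 1.66 in Emx1-Cre over the 1 wild-type library. In the other classes with enough UMIs, the intervals of both Plxnc1 ratios included 1. The gap between the cultures was narrow, from 85.6 CPM in wild-type culture 1 to 82.4 CPM in knockout culture 1. The difference between the settings was not tested. Groups of 2 or 3 cultures and single libraries are too small for a check of outlying samples.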

How the results depend on the processing

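Over all neurosphere genes edgeR called 3 higher and 3 lower, DESeq2 793 and 944, edgeR without the filter on low counts 1 higher, and leaving out 1 culture gave 0 to 1050 higher and 0 to 855 lower, with the highest counts without wild-type culture 1, 1 and 0 without knockout culture 1 and 0 in both directions without knockout culture 3. Of the partner genes, 0 were called in either direction, against 4 higher and 2 lower with DESeq2 and 0 to 6 higher and 0 to 4 lower on leaving out 1 culture. Cultures with the same number share only that number (correlations of their deviations −0.0053 and 0.093 over 2 pairs), and a replicate block gave 0 genes higher and 0 lower. The log2 fold change of Plxnb2 ran from −0.18 to 0.055 on leaving out 1 wild-type culture. In the P7 libraries, pairs at least 1.5-fold higher after thinning numbered 8 in nestin-Cre and 5 in Emx1-Cre, with fewer pairs (28) having 50 UMIs, and clusters gave 3 lower pairs in Emx1-Cre and kept the leading class of 4 plexins. The log2 ratio of Plxnc1 in neuroblast-gated Emx1-Cre cells reversed to 0.28 with clusters (main ratio 0.52, interval 0.24 to 1.03). Causes of these shifts beyond fewer samples or pairs were not tested. Of all values under the other settings, with the shifts above among them, 232 of 257 for single genes and 51 of 70 for counts stayed within the limits set for a shift. Pairs that fell under 50 UMIs in a setting have no value there, and the shallow wild-type library limits the ratios of Plxna1, Plxnb3 and Plxnd1.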

Other observations

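Rare classes, each with under 50 cells in at least 1 library, held some of the higher plexin levels. Macrophage-gated cells had 110, 154 and 132 CPM of Plxnb2 in wild-type, nestin-Cre and Emx1-Cre, from 12, 18 and 10 UMIs. Over the 3 libraries, the 108 Cajal-Retzius-gated cells, early-born neurons that secrete reelin, held 114 CPM of Plxnd1 (88.5 to 144) and 61.0 CPM of Plxna4 (42.9 to 84.0). Mural-gated cells of the wild-type library held 180 CPM of Plxnd1 (113 to 273) from 22 UMIs, and those of Emx1-Cre 38.1 CPM from 3 UMIs. The 7 mural-gated cells of nestin-Cre held 0 Plxnd1 UMIs, with an interval up to 198 CPM.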
